A study of Mus musculus with 8 samples.

Results

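The genes described here are 7 that were lower in islets of untreated Irs2-/- mice than in untreated wild-type islets and stayed low when Irs2-/- mice drank sodium tungstate: Dpp10, Pcdh15, Aard, Ly6h, Pacc1, Prss53 and Hspa12a. They were chosen by their measured levels in untreated wild-type, untreated Irs2-/- and treated Irs2-/- islets, so their differences between these groups are given as a description. Where limma calls of the 7 that use these groups are counted below, the counts are also description and not a test of the 7. They are 7 of 18193 genes that have a probe set naming a single gene, each read from the probe set with the highest mean over all 8 arrays. All 7 passed the filter on low values (a mean log2 level of at least 5.27), which left 13369 genes tested. In treated Irs2-/- islets the means of Dpp10, Pcdh15 and Aard were at or below those of untreated Irs2-/- islets, and the means of the other 4 lay between those of untreated Irs2-/- and wild-type islets. Pacc1 went in part against the description as a gene that tungstate does not restore, since its treated Irs2-/- arrays both lay above both untreated Irs2-/- arrays.

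Pancreatic islets of male C57Bl/6 mice were measured in 4 groups of 2 arrays each: wild type on distilled water, wild type on sodium tungstate, Irs2 knockout (Irs2-/-) on distilled water, and Irs2-/- on sodium tungstate. Mice were 10 weeks old at the start of the 21 days of treatment and 13 weeks old at its end. The tungstate concentration is written as 2 mg/ml in one place and 2 mg/dl in another, so the dose is not settled. The 2 samples of a group are called independent, but no source here says whether each was 1 mouse or a pool, or how the Irs2 allele was made. The p-values therefore cover the variation between samples of unknown makeup. The values are log2 expression from oligonucleotide arrays, and the number of arrays limits the precision. A difference of 1 on this scale is a 2-fold difference.

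Irs2 is a docking protein downstream of the receptors for insulin and IGF-1, and its loss in mice leads to diabetes as beta cells fail. Sodium tungstate lowers blood glucose in diabetic rodents when given by mouth. The 7 genes belong to no common pathway. Dpp10 is a relative of the dipeptidyl peptidases that has lost peptidase activity and serves as an accessory subunit of Kv4 potassium channels. Pcdh15 is a protocadherin best known as part of the tip link of inner ear hair cells. Ly6h is a lipid-anchored surface protein of the Ly6 family, some of whose members modulate nicotinic acetylcholine receptors. Pacc1 (also called Tmem206) forms a proton-activated chloride channel, Prss53 is a trypsin-like serine protease of the polyserase kind, and Hspa12a is a distant member of the Hsp70 chaperone family.

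The promoters, the stretch around a gene's start where transcription factors bind, are shown for 4 members so that genes that stayed at the untreated level (Dpp10 and Pcdh15) can be read beside genes that lay higher on one or both treated arrays (Pacc1 and Prss53). RefSeq (GRCm38.p6) gave 6 promoters for 5 of the 7 members. Aard and Ly6h are not shown. Each run holds 250 bases before and 50 after the start, 5′ to 3′ on the strand of the gene, and capitals mark the motif matches named below. They lie at chr1:124045510-124045809 on the minus strand (Dpp10), chr10:73821617-73821916 on the plus strand (Pcdh15), chr1:191325652-191325951 on the plus strand (Pacc1) and chr7:127890921-127891220 on the minus strand (Prss53). For Dpp10, Pcdh15 and Prss53 this start lies inside the span of the gene, so longer transcripts begin elsewhere.
Dpp10: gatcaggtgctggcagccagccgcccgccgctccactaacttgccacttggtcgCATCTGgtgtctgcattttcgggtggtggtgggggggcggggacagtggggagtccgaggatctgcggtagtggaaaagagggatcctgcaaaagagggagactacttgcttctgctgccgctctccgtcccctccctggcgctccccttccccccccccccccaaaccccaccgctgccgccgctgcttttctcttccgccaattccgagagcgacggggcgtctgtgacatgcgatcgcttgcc
Pcdh15: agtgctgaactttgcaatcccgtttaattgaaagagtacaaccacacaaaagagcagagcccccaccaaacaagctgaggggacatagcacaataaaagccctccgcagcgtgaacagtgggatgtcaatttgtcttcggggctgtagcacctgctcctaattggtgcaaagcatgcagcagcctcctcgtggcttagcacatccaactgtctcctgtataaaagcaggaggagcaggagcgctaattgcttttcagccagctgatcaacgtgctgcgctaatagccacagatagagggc
Pacc1: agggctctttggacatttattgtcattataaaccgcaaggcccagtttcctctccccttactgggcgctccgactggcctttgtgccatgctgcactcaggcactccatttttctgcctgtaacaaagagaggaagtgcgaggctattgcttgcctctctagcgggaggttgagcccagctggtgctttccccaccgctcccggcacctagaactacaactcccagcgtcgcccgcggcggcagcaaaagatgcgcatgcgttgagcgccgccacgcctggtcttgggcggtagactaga
Prss53: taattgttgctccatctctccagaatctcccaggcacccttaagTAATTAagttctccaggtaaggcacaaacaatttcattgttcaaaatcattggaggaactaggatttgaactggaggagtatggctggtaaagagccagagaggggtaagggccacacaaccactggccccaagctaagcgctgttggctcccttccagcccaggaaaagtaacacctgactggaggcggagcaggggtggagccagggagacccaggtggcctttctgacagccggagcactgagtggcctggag

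These promoters were of different kinds. Dpp10 had 21 CpG pairs and Pacc1 18, while Pcdh15 had 8 and Prss53 3, and the median over all 32851 promoters of this length in the table was 7. Each of 7 motifs was searched on both strands. The homeodomain core TAATTA, of the kind bound by Pdx1 and Nkx6-1, was in the Prss53 promoter and in 5.29% of all promoters. The E-box CAGATG, of the kind bound by NeuroD factors, was in the Dpp10 promoter (read there as CATCTG) and in 17.2% of all. The half-site of the cAMP response element, TGACG, which is also part of the full site, was in both Hspa12a promoters and in 20.8% of all. The forkhead site TGTTTAC (3.65% of all promoters), the MAF half-site TGCTGAC (4.67%), the full cAMP response element TGACGTCA (1.79%) and the RFX half-site GTTGCCA (4.38%) had 0 matches in the 6 promoters. A match describes letters in this window and is not a binding site.

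Before the members, the arrays themselves. Irs2 followed the labels on all 8 arrays, at 7.61 to 7.91 on the wild-type and 4.54 to 4.89 on the Irs2-/- arrays. Whole islets were measured, so fewer cells of a type and less RNA per cell cannot be told apart. The mean of the 22 tested beta cell markers (of 25 written) was 11.60 to 11.71 in wild type. It was 10.74 and 10.88 in untreated Irs2-/- islets and 10.94 and 11.38 on treated Irs2-/- replicates 1 and 2. The mean of the 18 tested acinar markers (of 24) was 8.94 and 11.94 in untreated wild-type, 10.43 and 10.41 in treated wild-type, 11.52 and 12.35 in untreated Irs2-/- and 11.24 and 12.06 in treated Irs2-/- islets. The 4 tested delta cell markers (of 5) averaged 11.05 to 11.28 in wild type, 10.89 and 11.01 in untreated and 10.69 and 10.67 in treated Irs2-/- islets. The 11 tested macrophage markers (of 12) averaged 7.14 to 7.37 in wild type, 8.62 and 8.84 in untreated and 7.53 and 7.60 in treated Irs2-/- islets. The means of 10 tested endothelial markers (of 11) were 7.46 to 7.73 in wild type, 8.30 and 8.28 in untreated and 8.73 and 8.16 in treated Irs2-/- islets, and those of 7 duct markers (of 8) were 8.13 to 8.26, 8.77 and 8.68, and 8.98 and 8.42. Both lists thus were higher on all Irs2-/- than on all wild-type arrays, with and without tungstate, while the members were lower. The macrophage mean was also higher on all Irs2-/- arrays. The beta cell and delta cell means were lower on all of them, in the direction of the members. The delta cell list was mixed. Of its 4 tested genes 2 were lower and 1 higher by limma in untreated Irs2-/- islets (8.52% and 8.27% over all genes tested). Their median difference was -0.14. Alpha cell markers (4 tested of 6) averaged 10.52 to 10.79 in wild type and 10.36 to 10.86 in Irs2-/- islets. PP cell markers (2) averaged 14.03 to 14.19 and 13.87 to 14.30. The Schwann and neural means (5 of 10) were 6.39 to 6.56 and 6.47 to 6.90. These overlapped between genotypes. The 10 tested lymphocyte markers (of 12) averaged 5.39 to 6.73 in wild type, 8.18 and 7.34 in untreated and 5.96 and 6.60 in treated Irs2-/- islets, and the 10 stellate and fibroblast markers 6.47 to 8.28, 8.69 and 8.30, and 8.27 and 7.71. Control probe sets for 18S rRNA, 3 in number, read 11.75 to 12.70 on wild-type, 11.05 and 10.63 on untreated and 11.92 and 11.12 on treated Irs2-/- arrays. The part of these measures in the results was not tested, apart from the fit with the acinar level as a covariate, given below.

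Among the channel and adhesion genes, Dpp10 and Pcdh15 stayed at or below their untreated Irs2-/- level. Dpp10 read 8.47 and 8.24 in untreated wild-type, 8.77 and 7.71 in treated wild-type, 5.71 and 5.83 in untreated Irs2-/- and 5.76 and 5.72 in treated Irs2-/- islets. The 4 Irs2-/- arrays lay within 0.12 of each other and far below the wild-type arrays, which did not overlap with them. The untreated genotype difference was -2.59 ± 0.29 (SE), a 6.01-fold lower level, and treated Irs2-/- islets differed from untreated wild type by -2.62 ± 0.29. On the linear scale Dpp10 stood at 16.6% of the untreated wild-type level in untreated and at 16.3% in treated Irs2-/- islets. Its SD of 0.75 between the treated wild-type arrays was the widest spread within a group for any of the 7 genes.

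Pcdh15 read 7.06 and 7.09 in untreated wild-type, 7.10 and 6.58 in treated wild-type, 5.50 and 4.90 in untreated Irs2-/- and 4.76 and 5.09 in treated Irs2-/- islets. Of the Irs2-/- arrays 3 lay below 5.27, the filter level, so the size of the loss is not exactly measured. Without Irs2 the gene was 3.68-fold lower in untreated mice (-1.88 ± 0.24), and treated Irs2-/- islets differed from untreated wild type by -2.15 ± 0.24. The untreated and treated Irs2-/- arrays overlapped.

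Aard, which encodes a protein rich in alanine and arginine, followed the same order. It read 8.29 and 8.00 in untreated wild-type, 8.33 and 7.63 in treated wild-type, 6.16 and 6.24 in untreated Irs2-/- and 6.41 and 5.77 in treated Irs2-/- islets. The treated Irs2-/- arrays lay on either side of the untreated ones. The untreated difference was -1.95 ± 0.27, a 3.85-fold lower level, and the level was 26.0% of untreated wild type in untreated and 24.0% in treated Irs2-/- islets.

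Ly6h read 6.28 and 6.68 in untreated wild-type, 7.09 and 6.66 in treated wild-type, 4.64 and 4.96 in untreated Irs2-/- and 4.95 and 5.17 in treated Irs2-/- islets. All 4 Irs2-/- arrays were below 5.27, so this probe set was near the low end of the array's range without Irs2 and the difference may be larger than read. The untreated difference was -1.68 ± 0.20 (3.20-fold lower), and treated Irs2-/- islets differed from untreated wild type by -1.42 ± 0.20. Against treated wild type the difference was -1.82 ± 0.20, since Ly6h read higher in treated wild-type islets.

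Pacc1 had the smallest share of its difference left. It read 9.58 and 9.68 in untreated wild-type, 9.52 and 9.52 in treated wild-type, 7.35 and 7.57 in untreated Irs2-/- and 7.78 and 8.40 in treated Irs2-/- islets. Both treated Irs2-/- arrays were higher than both untreated ones, by a gap of 0.21, and still lower than every wild-type array, by a gap of at least 1.11. The untreated difference was -2.17 ± 0.20 (4.50-fold lower), and treated stood above untreated Irs2-/- islets by 0.63 ± 0.20. On the linear scale Pacc1 went from 22.2% to 34.5% of the untreated wild-type level.

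Prss53 had the highest probe set readings of the 7, at 11.04 and 11.26 in untreated wild-type and 11.48 and 11.53 in treated wild-type islets. It read 9.15 and 9.29 in untreated Irs2-/- and 9.24 and 10.05 in treated Irs2-/- islets. Treated replicate 1 lay between the untreated Irs2-/- arrays, and replicate 2 lay 0.81 above it. The untreated difference was -1.93 ± 0.24, a 3.82-fold lower level, and treated Irs2-/- islets differed from untreated wild type by -1.51 ± 0.24. Far from the low end of the array's range, Prss53 and Pacc1 give differences that the filter level does not limit.

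Hspa12a read 7.18 and 7.30 in untreated wild-type, 7.29 and 7.26 in treated wild-type, 5.51 and 5.78 in untreated Irs2-/- and 5.72 and 6.25 in treated Irs2-/- islets. As for Prss53, treated replicate 1 lay between the untreated Irs2-/- arrays and replicate 2 above both. The untreated difference was -1.60 ± 0.18 (3.02-fold lower), the smallest of the 7, and treated Irs2-/- islets differed from untreated wild type by -1.25 ± 0.18.

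**Figure D1:**
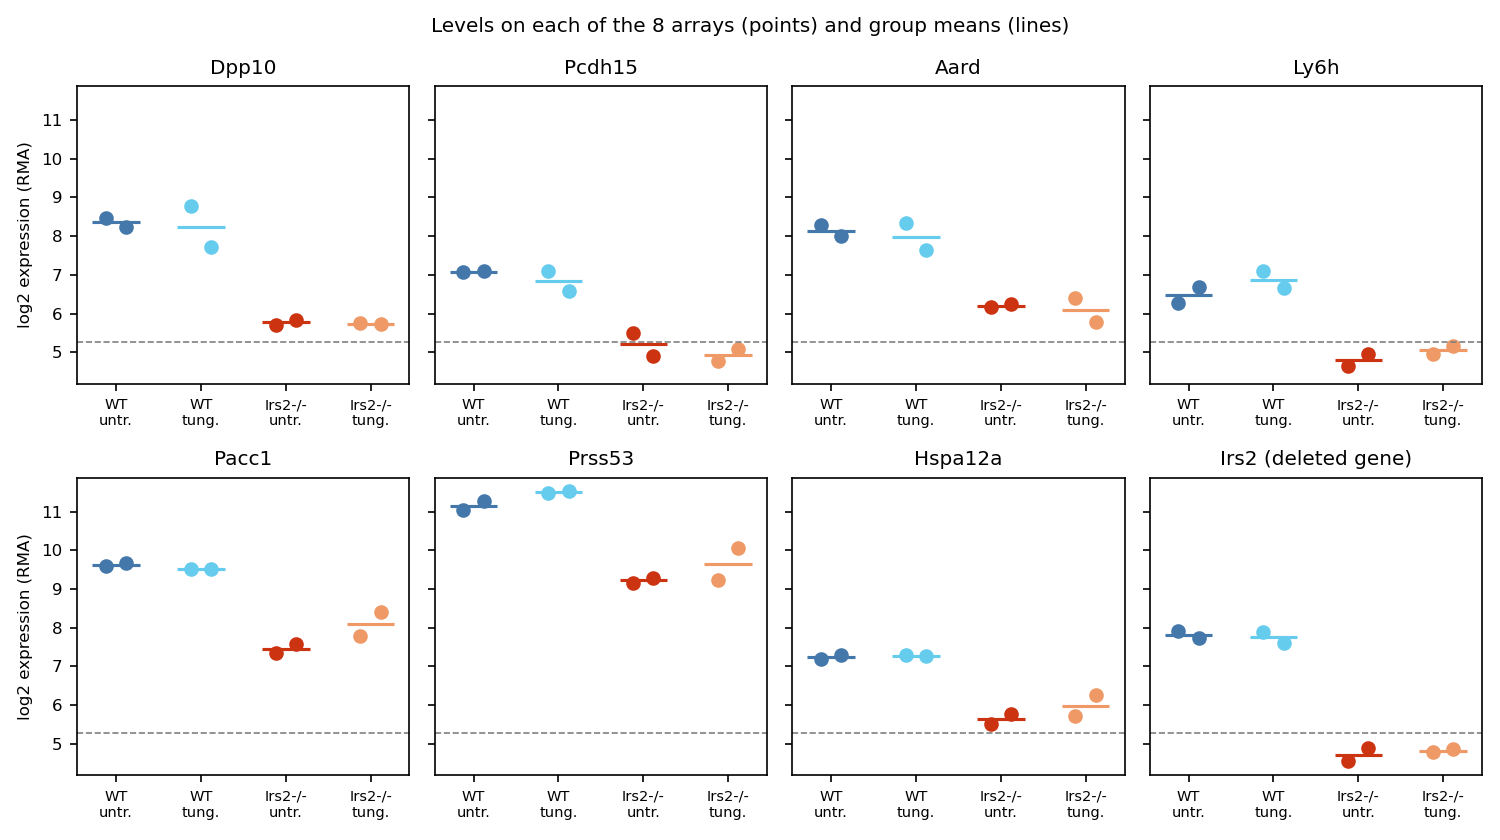
Log2 expression (RMA, vertical axis) of the 7 genes and of the deleted gene Irs2 on each of the 8 arrays, as 2 points per group (WT, wild type; untr., distilled water; tung., sodium tungstate), with a line at each group mean. The dashed line marks 5.27, the filter on the mean level. In every panel the 4 Irs2-/- arrays lie below the 4 wild-type arrays, an order that for the 7 genes was set in part by their choice. Of all genes tested, 25.7% had both treated Irs2-/- arrays below both treated wild-type arrays. That is a comparison of fewer arrays, and the share for all 8 arrays was not counted. Among the Irs2-/- arrays Ly6h, Pacc1, Prss53 and Hspa12a have their highest value on treated replicate 2.

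The share of the untreated genotype difference left in treated Irs2-/- islets, on the log2 scale, ran from 70.8% to 114.4% over the 7 genes. It was 101.1% for Dpp10 (Fieller 95% interval 77.3 to 132.5), 114.4% for Pcdh15 (86.8 to 154.0) and 105.8% for Aard (76.7 to 147.5). For Ly6h it was 84.7% (60.4 to 114.9), for Hspa12a 78.6% (55.6 to 105.9) and for Prss53 77.9% (53.2 to 107.4). Pacc1 had the smallest share, 70.8% (52.7 to 90.8), and its interval alone among the 7 did not reach 100%. These intervals cover the spread between arrays and not the choice of the genes, and they overlap among all 7, so the order of the shares is not settled by 2 arrays a group. The shares of Ly6h and Pcdh15 are the least exact, since all 4 Irs2-/- arrays of Ly6h and 3 of 4 of Pcdh15 lay below the filter level of 5.27, where both parts of the share are poorly measured. For the deleted gene Irs2, taken as a gene with no level to restore, the same share was 96.7%.

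The treated Irs2-/- arrays did not give the same share. Taken alone, replicate 1 gave 98.9% for Prss53, 95.2% for Hspa12a and 85.1% for Pacc1, and replicate 2 gave 56.8%, 62.0% and 56.5%. For Ly6h they gave 91.4% and 78.1%, and for Dpp10 100.3% and 101.9%. Aard ran the other way, with 89.3% on replicate 1 and 122.2% on replicate 2. Replicate 2 was also the treated Irs2-/- array with the higher mean of beta cell markers (11.38 against 10.94) and of acinar markers. For Prss53 and Hspa12a most of the shortfall from 100% thus came from replicate 2, and the shares of Dpp10 and Pcdh15 were above 100% on each array.

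The reference and the scale moved some shares. Against treated instead of untreated wild-type islets the share was 108.2% for Ly6h and 96.2% for Prss53, both of which read higher in treated wild-type islets, and 65.8% for Pacc1. As a share of the difference in linear levels it was 83.3% for Pacc1, and it lay between 85.9% and 107.0% for the other 6.

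**Figure D2:**
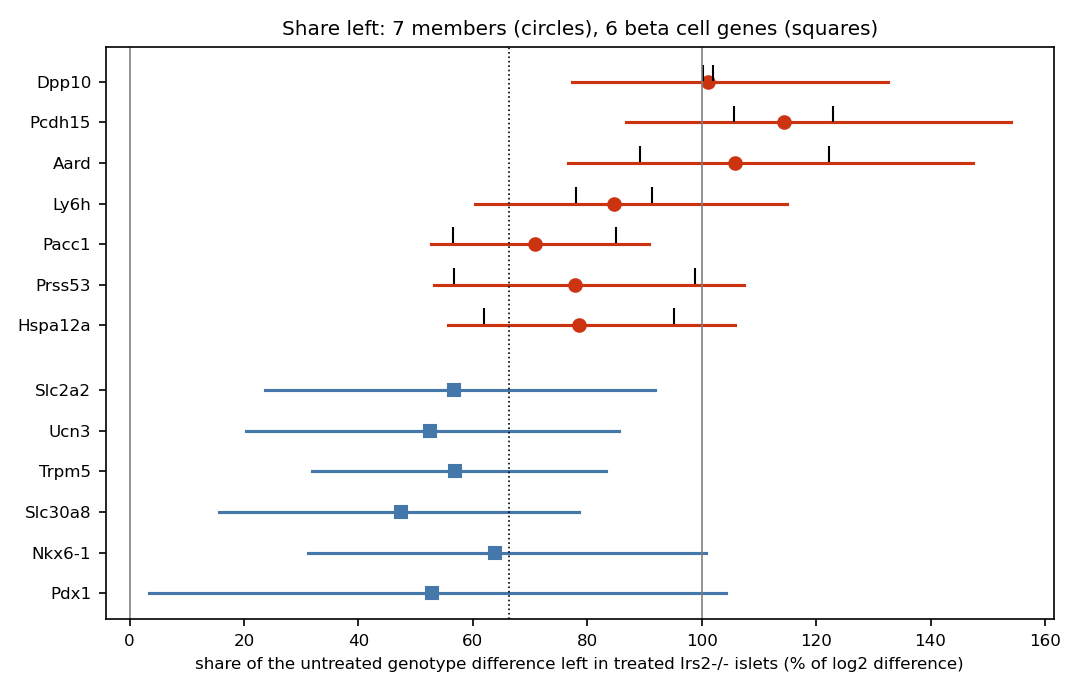
Share of the untreated genotype difference left in treated Irs2-/- islets, as a percent of the log2 difference (horizontal axis), for the 7 members (circles) and 6 beta cell genes (squares), with Fieller 95% intervals as lines. Black ticks give, for the members, the share from each treated Irs2-/- array alone, the dotted line marks the median of 66.3% over the 190 genes that passed limma's test and were at least 2-fold lower, and grey lines mark 0% and 100%. The ticks lie close together for Dpp10 and far apart for Prss53 (98.9% and 56.8%).

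For comparison, 6 well known beta cell genes that were lower without Irs2 had shares left of 47.4% to 63.8%. The glucose transporter gene Slc2a2 kept 56.7% of its difference (23.7 to 91.8), the peptide gene Ucn3 52.6% (20.3 to 85.6), the channel gene Trpm5 56.9% (31.9 to 83.3) and the zinc transporter gene Slc30a8 47.4% (15.7 to 78.6). The transcription factor gene Nkx6-1 kept 63.8% (31.2 to 100.7) and Pdx1 52.8% (3.4 to 104.2). The shares of these 6 on each treated Irs2-/- array alone were not computed. The beta cell marker mean was 10.94 on treated Irs2-/- replicate 1 and 11.38 on replicate 2. Other genes of beta cells, named after their values were seen, had larger shares. They were Sytl4 (65.1%), the incretin receptor genes Glp1r (71.2%) and Gipr (74.6%) and the GABA-making enzyme gene Gad1 (79.5%). Sytl4 and Glp1r are on the same beta cell marker list as the 6. The intervals of the 6 overlap with those of most of the 7 genes. Since the 7 were chosen for a large share, the difference between the 2 groups of genes was not tested.

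Among the genes with the largest losses, the shares of the 7 ran from inside the middle range to the upper end. Of the genes tested, 190 passed limma's test (adjusted p under 0.05) and were at least 2-fold lower in untreated Irs2-/- islets, and all 7 were among them. The median share left over the 190 was 66.3%, with quartiles at 58.4% and 75.4%, against a median of 84.7% over the 7, which the choice sets. Of the 190, 49 (25.8%) had a share of at least 75% and 4 (2.11%) of at least 100%. The 4 were Pcdh15, Aard, Dpp10 and, not a member, Kdm2b (103.5%). Other genes outside the 7 with shares like theirs, named after their values were seen, were Adgrb3 (99.8%), Mns1 (98.1%), Kcnj12 (93.5%) and the delta cell hormone gene Sst (82.4%). Pacc1 stood 73rd of the 190 in this order.

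**Figure D3:**
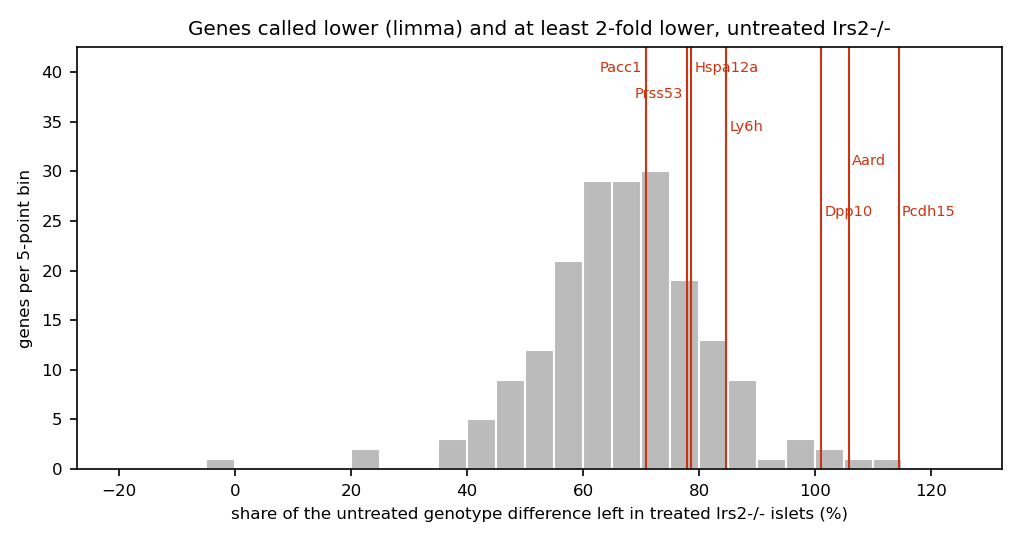
Number of genes (vertical axis, 5-point bins) by the share of the untreated genotype difference left in treated Irs2-/- islets (horizontal axis, %), for the 190 genes that passed limma's test (adjusted p under 0.05) and were at least 2-fold lower in untreated Irs2-/- islets. Red lines mark the 7 members, from Pacc1 at 70.8%, inside the bulk of the distribution, to Pcdh15 at 114.4%, its upper end.

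The calls of the 7 that follow come from comparisons that use the groups by which they were chosen, so high counts follow from the choice. All 7 were among the 1139 genes lower in untreated Irs2-/- islets (8.52% of those tested), and all 7 among the 52 lower in treated Irs2-/- than in treated wild-type islets (0.389%), both by limma with an adjusted p under 0.05. Of the 21 genes lower in treated Irs2-/- than in untreated wild-type islets (0.157%), 6 were members, and Prss53 did not pass. With the replicate number as a block, after median centring, or with a variance trend and robust moderation, Prss53 passed as well. With the acinar level as a covariate or after quantile normalization 4 members passed in this comparison. With all probe sets of a gene averaged 4 passed of 6 members tested. Nothing is read from these counts, because the values that chose the genes enter them. The calls thin out with 1 array fewer. In each setting named next the count over all genes moved in the same direction as that of the members. These counts therefore do not set the members apart. Without either untreated wild-type array, or without treated Irs2-/- replicate 1, 0 of the 7 passed against untreated wild type. Without either treated wild-type array or either untreated Irs2-/- array 2 passed, and without treated Irs2-/- replicate 2 all 7 did. In treated mice 1 of the 7 passed without either treated wild-type array or without treated Irs2-/- replicate 1. Without replicate 1 of both untreated groups the counts were 4 in untreated mice, 0 against untreated wild type and 6 in treated mice. For the calls against untreated wild type, the direction over all genes depends on the scaling. Of 47 calls 21 were lower, compared with 60 of 87 after median centring and 15 of 48 after quantile normalization.

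In Irs2-/- islets 0 of the 7 passed limma's test for tungstate, where 3 of all genes were higher (0.0224%) and 63 lower (0.471%). Nothing is read from this count, because both groups compared were among those that chose the 7. With so few genes higher, it also does not set the members apart. The treated minus untreated differences ran from -0.27 for Pcdh15 to 0.63 for Pacc1.

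Whether tungstate changes the 7 genes in the presence of Irs2 is taken to be the comparison that the choice of genes used least. The untreated wild-type arrays were among the values that chose them, and the treated wild-type arrays are taken not to have been. The mean over all arrays, which picked each probe set and decided the filter, does include treated wild type. Earlier results of these data were also known, so a choice independent of the treated wild-type arrays is not shown. Between treated and untreated wild-type islets 0 of the 7 passed by limma, as did 0 of 13369 genes (0%). At an unadjusted p under 0.05 the counts were 0 of the 7 and 364 of all genes, and with the acinar level as a covariate 6 of all genes passed after adjustment, 0 of them members. Ly6h had the largest difference, 0.39 ± 0.20 (limma adjusted p = 1, unadjusted 0.0885), followed by Prss53 at 0.35 ± 0.24. Prss53 was higher on both treated than on both untreated wild-type arrays, by a gap of 0.22. Pcdh15 was at -0.23 ± 0.24, Aard at -0.16 ± 0.27, Dpp10 at -0.12 ± 0.29, Pacc1 at -0.11 ± 0.20 and Hspa12a at 0.04 ± 0.18. With an SE of 0.18 to 0.29 from 2 arrays a group, a p that misses the threshold does not show that tungstate left these genes as they were. Dpp10, Aard, Pcdh15 and Ly6h all read lower on treated wild-type replicate 2 than on replicate 1, with differences of -1.06, -0.69, -0.52 and -0.42, while the other 3 differed by at most 0.04.

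The 7 genes have 17 probe sets naming them alone, and these did not all show the loss. Of the 17, 11 were at least 2-fold lower in untreated Irs2-/- islets and 6 were not. Dpp10 has 2, and the other read 7.23 and 7.00 in untreated wild-type and 5.68 and 5.19 in untreated Irs2-/- islets, with 100.1% of that difference left after tungstate. Pacc1 has 5. Of these, 3 were lower, with differences of -2.35, -2.17 and -1.87 and, in the same order, shares left of 77.9%, 70.8% and 80.4%. Another, with a mean of 7.60 and so well above the filter, differed by -0.14 in untreated and -0.20 in treated mice, and the last had a mean of 4.11. Hspa12a has 4, of which 2 were lower (-1.60 and -1.22, with 78.6% and 75.6% left), while one with a mean of 5.79 was at -0.38 and one with a mean of 4.82 at -0.33. Treated Irs2-/- islets differed from untreated wild type by -0.12 on the former, which is above the filter, and by 0.14 on the latter, which is under it. For Pcdh15 only 1 of 3 showed the loss, and the other 2 had means of 4.56 and 3.68, under the filter. Aard, Ly6h and Prss53 rest on 1 probe set each. Which transcripts each probe set detects was not analysed here.

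**Figure D4:**
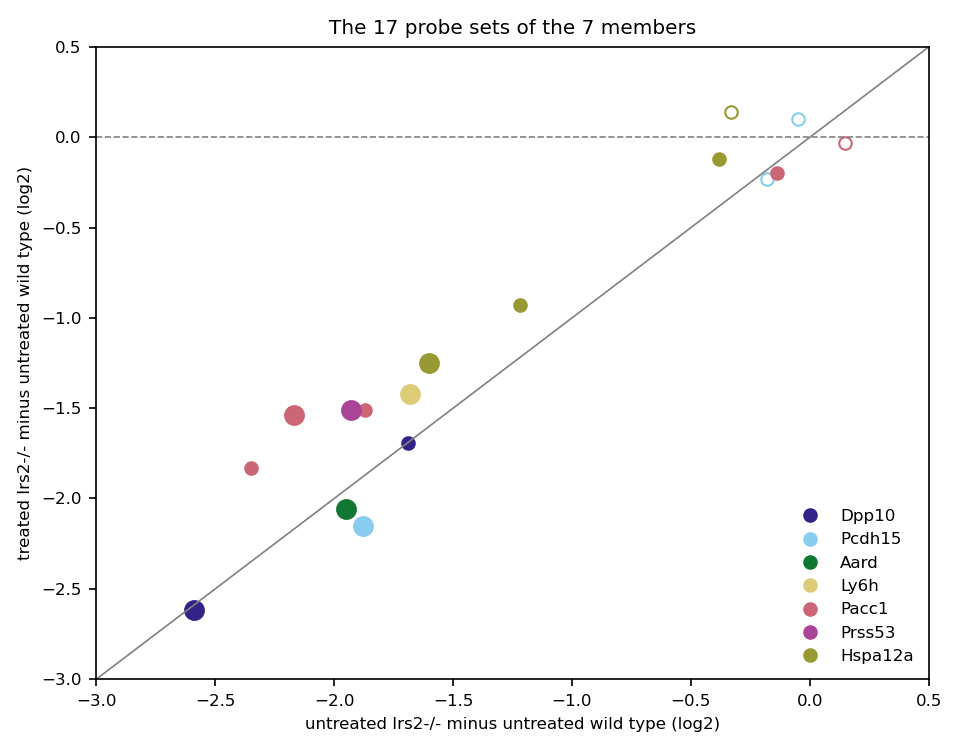
Each of the 17 probe sets of the 7 genes by its untreated genotype difference (horizontal axis, log2) and its difference between treated Irs2-/- and untreated wild-type islets (vertical axis, log2). Large circles are the probe sets used, small ones the others, and hollow ones have a mean below the filter. On the diagonal all of the difference is left and on the dashed line none. The 2 Dpp10 probe sets lie on the diagonal, the 3 low Pacc1 probe sets above it, and 6 probe sets near the origin.

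Over the 8 arrays the levels of the 7 genes ran closely together, with Pearson's r between 0.872 and 0.995 over the 21 pairs (median 0.942). These correlations are mostly the difference between genotypes, by which the genes were chosen, and all points share the same 8 arrays. The genes most like each member were picked by r over these same 8 arrays, so shares left near that of the member follow largely from the choice. Dpp10 was nearest to Ubtd2 (r = 0.991), the fatty acid elongase gene Elovl2 (0.990) and Rps6kc1 (0.989), and Aard to the elongase gene Elovl6 (0.995), Kat14 (0.990) and Rps6kc1 (0.990). The shares left of these 5 genes ran from 88.3% to 113.6%. Their untreated differences ran from -1.18 for Ubtd2 to -0.24 for Rps6kc1, and a share over so small a difference as the latter is poorly measured. Pcdh15 was nearest to Iqcc and Esco1 (0.982 each) and 4833438C02Rik (0.981). Pacc1 and Hspa12a were among the nearest of each other (0.995). Fhdc1 was among the nearest 3 of Ly6h (0.988), Prss53 (0.994) and Hspa12a (0.995), and 4931431B13Rik, which was at -2.36 in untreated Irs2-/- islets with 80.4% left, among those of Ly6h (0.991) and Prss53 (0.995). Pacc1 was also near A530058N18Rik (0.993) and Ttc28 (0.991), Prss53 near the receptor kinase gene Grk5 (0.996), Hspa12a near Pgap6 (0.994) and Ly6h near Pdzd4 (0.992).

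Most relatives and partners of the 7 genes did not pass the test in untreated mice. Of 80 relatives tested, 12 rose in untreated Irs2-/- islets (15.0%, against 8.27% of all genes tested) and 3 fell (3.75%, against 8.52%), by limma with an adjusted p under 0.05. Their median difference was 0.03, against -0.01 over all genes. Without replicate 1 of both untreated groups 3 rose and 1 fell, where 297 of all 13369 genes were higher and 70 lower. Leaving out 1 array at a time gave 2 to 14 that rose, the fewest without untreated wild-type replicate 2, and 0 to 3 that fell, the fewest without untreated wild-type replicate 1. With the acinar level as a covariate 9 rose and 1 fell, where 955 of all genes were higher and 522 lower. In treated mice 0 of the 80 passed in either direction, where 0.636% of all genes were higher, and 1 fell with tungstate in Irs2-/- islets.

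Among the partners of Dpp10, 0 of 6 tested genes of the Kv4 channel complex and 0 of 7 of the dipeptidyl peptidase family passed in untreated mice by limma. The nearest relative, Dpp6, also a Kv4 accessory subunit, was at -0.34 ± 0.14 in untreated mice (limma adjusted p = 0.137) and at -0.63 in treated mice (adjusted p = 0.0826). The channel partner gene Kcnip2 was at -0.37 ± 0.22. Among 7 tested genes of the tip link and Usher complex, 1 fell, the adhesion receptor gene Adgrv1 (-0.64 ± 0.14, limma adjusted p = 0.0235), with 92.4% of the difference left, and of 4 other protocadherin genes 0 passed, with Pcdh17 at -0.44 ± 0.22.

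Some relatives of Ly6h were higher. Of 12 tested Ly6 and related genes 4 rose and 0 fell in untreated Irs2-/- islets, with a median difference of 0.46, and 0 passed in treated mice. Plaur, the urokinase receptor gene, rose by 1.97 ± 0.12 (limma adjusted p = 0.00048) and fell with tungstate in Irs2-/- islets by 1.43 (adjusted p = 0.00626). Lypd6b (1.43 ± 0.18), Ly6e (1.31 ± 0.22) and Lynx1 (0.97 ± 0.20) rose as well. Macrophage markers were higher on the same arrays, as given above, and their part in these values was not tested. Of 4 nicotinic receptor subunit genes 0 passed by limma, with Chrna3 at 0.39 ± 0.13.

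Among 17 chloride channel genes 5 rose, such as the volume-regulated channel subunit gene Lrrc8c (0.77 ± 0.12, limma adjusted p = 0.0082) and Clic1 (0.56 ± 0.11), and Clcn4 fell (-0.55 ± 0.12). Of 11 trypsin-like proteases 3 rose, St14 (1.41 ± 0.28), Tmprss2 (1.28 ± 0.29) and Tmprss6 (0.48 ± 0.12), and Prss8 was at 0.41 ± 0.13 (limma adjusted p = 0.0611). The 13 Hsp70 genes had a median difference of -0.40, and 1 fell, Hspa4l (-0.93 ± 0.16, limma adjusted p = 0.0104), with 49.0% left, and Hspa2 was at -0.73 ± 0.21 (adjusted p = 0.0535).

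The nearest measured gene on each side of every member was read from the RefSeq gene table (GRCm38.p6). Of these 14 neighbours 10 were tested, and in untreated Irs2-/- islets 1 fell and 1 rose, near the 8.52% and 8.27% over all genes tested. The one that fell was Slc30a8, which follows Aard on chromosome 15 and makes the zinc transporter of insulin granules (12.63 in untreated wild-type and 11.14 in untreated Irs2-/- islets, -1.50 ± 0.22, limma adjusted p = 0.00651). Slc30a8 kept 47.4% of its difference after tungstate and Aard 105.8%, with intervals that overlap at 76.7% to 78.6%. On the other side of Aard, Rad21 was at -0.41 ± 0.14 (adjusted p = 0.0832). The one that rose was Vkorc1, the vitamin K recycling enzyme gene beside Prss53 on chromosome 7 (0.79 ± 0.13, limma adjusted p = 0.0101), while Zfp646 on the other side was at -0.02 ± 0.13. Beside Ly6h, Gpihbp1, itself of the Ly6 family, was at 0.77 ± 0.24 (adjusted p = 0.0614). The neighbours of Dpp10, Ddx18 and Actr3, were at 0.02 ± 0.16 and 0.09 ± 0.20, and those of Pacc1, Nenf and Ppp2r5a, at 0.46 ± 0.15 and 0.31 ± 0.16.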

How the data were processed

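Total RNA of islets was labelled with biotin and hybridised to Affymetrix arrays, per the labels' protocols. The authors deposited 1 log2 level for each probe set and array. RMA, affy and R 2.7.0 are named in the submitters' processing notes. RMA sets all arrays to nearly one distribution, so a shift common to all genes is not seen. Of 45037 probe sets besides 64 controls, 34945 name 1 gene. Gene numbers of 18031 of 18193 genes matched RefSeq (GRCm38.p6), with the symbol unchanged for all of those.

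Each gene was read from its probe set with the highest mean, and 4824 genes with a mean below the 40th percentile of probe sets (5.27) were left out. The 4 groups were fitted in limma 3.58.1 (R 4.3.3; 4 residual and 3.89 prior degrees of freedom) with Benjamini and Hochberg adjustment within each comparison. SE is limma's, from the spread pooled over the 4 groups. The share left is the difference of treated Irs2-/- from untreated wild-type islets over that of untreated Irs2-/- from untreated wild type, with a Fieller 95% interval. Named were the 7 members, the 3 genes nearest each by Pearson's r, up to 4 relatives of each list with the smallest p in untreated mice, neighbours with a probe set of their own, 6 beta cell genes and Irs2. The members, lists and tests were chosen with earlier results of these data known. The fit and the share were tested on simulated data.

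The 2 arrays of a group did not hold identical values in any of the 4 groups. Alternatives tried were other filters, the replicate block, quantile normalization, median centring, averaging a gene's probe sets, the acinar level as a covariate, a variance trend with robust moderation, another reference or scale for the share, leaving out each array, and leaving out replicate 1 of both untreated groups. Counts of members and relatives under these were added after seeing the data.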

Additional observations from a re-analysis of the deposited data

Results flagged for a closer look

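Pacc1 was the one gene of the 7 whose treated and untreated arrays separated in both genotypes, in opposite directions. Its wild-type difference was smaller than its SE, so a change in wild type is not shown. How many of all genes had this order of arrays was not counted. Both treated Irs2-/- arrays lay above both untreated ones (0.63 ± 0.20), and both treated wild-type arrays lay below both untreated ones, by a gap of 0.06 (-0.11 ± 0.20). The difference between the 2 tungstate effects was 0.74 ± 0.28 (SE, log2). It was not tested, since the levels in Irs2-/- islets chose the gene. The other 2 Pacc1 probe sets with the genotype difference, read on the same arrays, showed the same order: one read 6.73 and 6.71 in untreated and 7.03 and 7.45 in treated Irs2-/- islets, and the other 6.43 and 6.41 against 6.53 and 7.05. The probe set with a mean of 7.60, above the filter, showed no rise, at 7.49 and 7.60 against 7.40 and 7.56. The one with a mean of 4.11, under the filter, read 4.17 and 4.26 against 3.84 and 4.24.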

How the results depend on the processing

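The untreated difference stayed below 0 and the share left above 0 for each of the 7 genes under each alternative run. The median share of 84.7% ran from 77.4% to 95.2% when 1 array was left out and was 96.6% with treated wild type as the reference. For single genes, leaving out 1 array gave 56.5% to 85.1% for Pacc1, 56.8% to 98.9% for Prss53, 62.0% to 95.2% for Hspa12a and 98.6% to 136.1% for Pcdh15. The mean of its probe sets gave 61.3% for Hspa12a, and the untreated differences were then -0.88 for Hspa12a, -1.28 for Pacc1 and -0.70 for Pcdh15, which was too low to be tested. Tungstate in wild type turned for Hspa12a, from 0.04 to -0.02, without replicate 1 of both untreated groups. When 1 array was left out it ran from -0.02 to 0.10 for Hspa12a, from -0.65 to 0.41 for Dpp10, from -0.51 to 0.18 for Aard and from -0.49 to 0.03 for Pcdh15, and 0 of these passed.

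Counts over all genes (2245 for the genotypes in untreated mice, 66 for tungstate in Irs2-/-, 47 for treated Irs2-/- against untreated wild type, 137 for the genotypes in treated mice and 0 for tungstate in wild type) moved by over 1.5 times as follows. With 1 array left out they ran, in that order, from 652 to 2639, 16 to 265, 4 to 585, 3 to 679 and 0 to 9. With the acinar covariate they were 1477, 160, 285 in treated mice and 6 for tungstate in wild type. Without replicate 1 of both untreated groups they were 367, 31 and 5 for the first 3. A variance trend gave 142 against untreated wild type and 224 in treated mice, median centring 87 against untreated wild type, the mean of probe sets 77 in treated mice, and the 60th percentile filter 34 for tungstate in Irs2-/-. With the replicate block none of these counts moved by over 1.5 times (2435, 82, 62, 176 and 0), while relatives that fell in untreated mice were 5 instead of 3. The numbers are not said to mark a shared animal or day, and same-numbered arrays deviated from their group means with correlations of -0.07 to 0.42. The block changed no other member call than that of Prss53. The causes were not tested.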
